A study of Mus musculus with 9 samples.

Results

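The fusion ETV6-NCOA2 was compared with its empty vector in cultured mouse marrow cells, gene by gene, across signalling, adhesion, transport, metabolism and growth. The comparison takes 6 of the 9 libraries of the study, 3 with ETV6-NCOA2 and 3 with empty vector, and tests 13750 of the 17266 genes in the table. A gene entered the test with a value of at least 10 normalized counts in at least 3 of the 9 libraries. All donors were untreated female C57B/6 mice, 6 weeks old, and their lineage-negative marrow cells were taken with magnetic beads. The control cells received retrovirus with MigR1-IRES-GFP and the fusion cells MigR1-ETV6-NCOA2-IRES-GFP, so both groups express GFP. Both grew for 5 days in RPMI medium with the cytokines SCF, IL-3 and IL-6, and GFP+ cells were sorted before polyadenylated RNA was sequenced. The other 3 libraries carry KAT6A-NCOA2 in the same vector design. They share the fit, and their values are set beside some genes, with a direct test between the fusions. Values are normalized counts, which is to say reads scaled by 1 factor per library. A log2 fold change is the difference of group means of log2(value + 1), with its limma standard error (SE).

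ETV6 is an ETS-family transcription factor that binds DNA and recruits corepressors, and blood stem cells need it in adult marrow. NCOA2 is a coactivator that nuclear receptors bind when they hold their hormone, and it brings in acetyltransferases that modify histones. The study's title places the fusion in acute leukemia of mixed T and myeloid phenotype. SCF acts through the receptor KIT, and with IL-3 it supports mast cells and myeloid progenitors, so a culture of this kind holds a mixture of cells.

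Between 17.5 and 20.4 M reads lay behind each of the 6 libraries. Against empty vector 390 genes were called at a limma adjusted p below 0.05, which is 2.84% of those tested, with 140 higher (1.02%) and 250 lower (1.82%). At least 2-fold changes made up 154 of them (1.12%). Of the 390, 8 rises met the minimum of 10 only in ETV6-NCOA2 libraries and 6 falls only in empty vector libraries, so they had to differ once tested and give no support. The 3 ETV6-NCOA2 libraries lay wholly above the 3 empty vector libraries in 1239 genes (9.01%) and wholly below in 1712 (12.5%), and all 390 called genes are among these 2951 (21.5%). Whether replicates are separate mice or cultures is not given in the labels. The p-values therefore weigh the groups against the spread among these libraries only, which may be technical. The count rests on single libraries: without empty vector replicate 2 it rose to 1765, and dropping the other empty vector libraries, 1 and 3, gave 85 and 73. Dropping ETV6-NCOA2 replicate 1, 2 or 3 gave 218, 61 and 82. In 48 genes, 14 higher and 34 lower, the call held in all 6 of these fits. Klrb1c and Fgf3 are among the 48 but met the minimum in 1 group only, so they give no support. The mouse genes Etv6, Kat6a and Ncoa2 had adjusted p values of 0.95, 0.99 and 0.6. The labelled progenitor type was checked on markers: Kit and Cd34 were present in all 6 libraries, with Cd34 between 3915 and 5745 normalized counts. The T cell gene Cd3e stayed between 6.17 and 18.7, while the myeloid integrin gene Itgam, whose protein lineage depletion commonly targets, stood between 9614 and 25301.

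**Figure D1:**
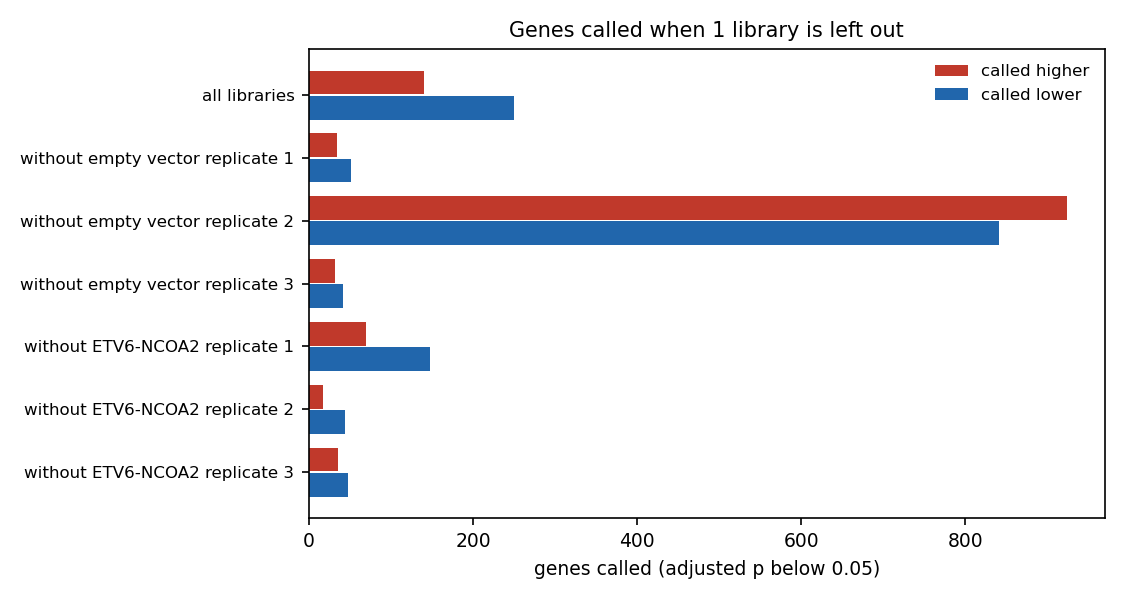
Genes called higher (red) and lower (blue) with ETV6-NCOA2 against empty vector, in the fit of all libraries and in 6 fits that each leave out 1 library (bars, number of genes with a limma adjusted p below 0.05). The count of 390 becomes 1765 without empty vector replicate 2 and lies between 61 and 218 in the other 5 fits.

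**Figure D2:**
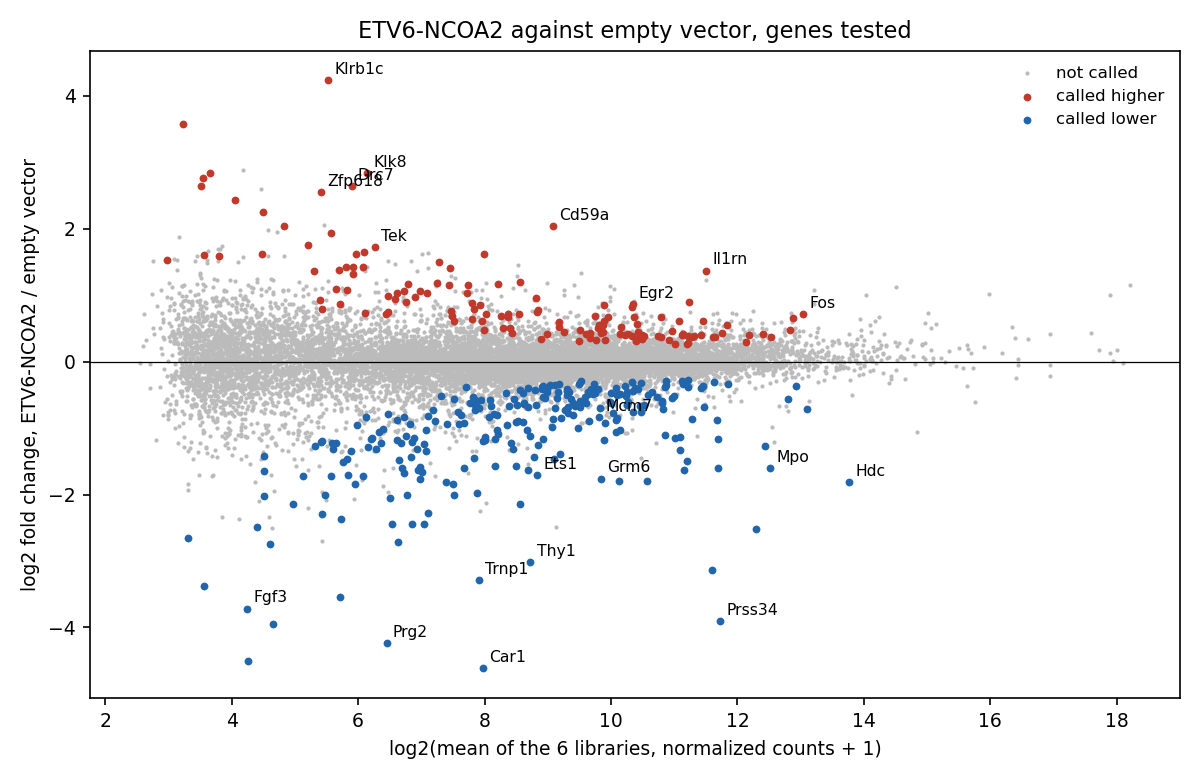
Log2 fold change of each tested gene (vertical) against log2 of its mean over the 6 libraries plus 1 (horizontal), with 140 genes called higher in red, 250 called lower in blue and the others in grey. Called falls reach further than called rises among well-expressed genes, with Prss34, Hdc and Mpo below and to the right.

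Genes that mark other cell types moved with the groups, and they stand first because many later genes are shared with those cells. Of 24 tested mast cell and basophil genes 10 fell (41.7%), against 1.82% of all genes called lower. The list's summed level ran from 129040 to 206640 normalized counts with empty vector and from 71846 to 95766 with ETV6-NCOA2. With KAT6A-NCOA2 it ran from 55286 to 75077, also below the controls. The 10 became 2, 13 and 2 with empty vector replicate 1, 2 or 3 left out and 10, 2 and 2 with ETV6-NCOA2 replicate 1, 2 or 3 left out. Of 17 erythroid genes 5 fell, and their sum ran from 8315 to 12675 and from 6898 to 9710, so the groups overlap. The 5 became 4, 7 and 4 with empty vector replicate 1, 2 or 3 left out and 5, 4 and 4 with ETV6-NCOA2 replicate 1, 2 or 3 left out. Of 9 primary granule genes 4 fell, with sums of 46295 to 54552 and 34814 to 41908. These 4 became 1, 6 and 1 with empty vector replicate 1, 2 or 3 left out and 2, 1 and 1 with ETV6-NCOA2 replicate 1, 2 or 3 left out. Among 8 eosinophil genes 3 fell and Siglecf rose, with sums of 1156 to 2280 and 1028 to 1128. Of the 3, Epx and Prg3 met the minimum only in empty vector libraries, which leaves 1. The 3 became 1, 5 and 2 with empty vector replicate 1, 2 or 3 left out and 3, 2 and 3 with ETV6-NCOA2 replicate 1, 2 or 3 left out. No marker of these lists was at 0 in all 6 libraries. In bulk RNA, fewer cells of a type and less RNA per cell cannot be told apart. The part of these cells in the results that follow was not tested.

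Immediate early genes were higher with ETV6-NCOA2. They are transcribed within minutes of a growth factor or stress signal, through factors such as SRF and CREB that already sit on their promoters. Of 36 tested early response genes 8 rose (22.2%), against 1.02% of all genes called higher. The list's median log2 fold change was 0.37, against 0.0089 for all genes. In 20 of the 36 the ETV6-NCOA2 libraries were all above the control libraries, as in 9.01% of all genes. The earlier results of these data had already shown the list to be higher. Fos, a partner in the AP-1 dimer, stood at 5124, 6562 and 7379.7 normalized counts with empty vector and 9125, 12224 and 9928 with ETV6-NCOA2 (log2 fold change 0.72 ± 0.14 SE, adjusted p = 0.03). Egr2, a zinc finger factor of the same response, stood at 684, 1209 and 912 normalized counts with empty vector and 1802, 1589 and 1582 with ETV6-NCOA2 (log2 fold change 0.86 ± 0.18 SE, adjusted p = 0.036). In both genes every fusion library was above every control library, with the highest control 1209 for Egr2 and 7380 for Fos. Zfp36, whose protein shortens the life of mRNAs with AU-rich ends, stood at 5615, 5904 and 6705 normalized counts with empty vector and 8183, 8806 and 8381 with ETV6-NCOA2 (log2 fold change 0.48 ± 0.08 SE, adjusted p = 0.02). Btg2, an antiproliferative gene that p53 also induces, stood at 787, 709 and 785 normalized counts with empty vector and 1143, 1178 and 1041 with ETV6-NCOA2 (log2 fold change 0.56 ± 0.07 SE, adjusted p = 0.0071). Its controls lay close together, between 709 and 787, and its fusion libraries between 1041 and 1178. The other members past the test were the AP-1 genes Junb and Jund, with log2 fold changes of 0.38 and 0.41, the phosphatase regulator Ppp1r15a at 0.47 and the pseudokinase gene Trib1 at 0.52. Dusp1, a phosphatase that switches off MAP kinases and a glucocorticoid target, also rose and stood at 4711, 6197 and 6680.0 normalized counts with empty vector and 7972, 10698 and 8841 with ETV6-NCOA2 (log2 fold change 0.65 ± 0.15 SE, adjusted p = 0.048). Not every member passed: Egr1 stood at 3111, 2378 and 3555 normalized counts with empty vector and 4589.6, 5365 and 3847 with ETV6-NCOA2 with an adjusted p of 0.067, and Jun at 4407, 5765 and 4718 normalized counts with empty vector and 6469, 6562 and 6556 with ETV6-NCOA2 with 0.053. With empty vector replicate 1, 2 or 3 left out the test was passed by 2, 9 and 3 of 9 genes named here, and by 6, 1 and 3 with ETV6-NCOA2 replicate 1, 2 or 3 left out. Btg2 passed in all 6 of these fits.

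Promoter windows of some early genes that rose are shown for the elements that signal-driven factors read. Each window runs from 250 bases before to 50 after a transcription start in RefSeq on GRCm38.p6, and capitals mark a match on either strand. The serum response element (CArG box) lies in the windows of Egr2 and Zfp36, and the cAMP response element, TGACGTCA, in those of Btg2 and Dusp1.
Egr2: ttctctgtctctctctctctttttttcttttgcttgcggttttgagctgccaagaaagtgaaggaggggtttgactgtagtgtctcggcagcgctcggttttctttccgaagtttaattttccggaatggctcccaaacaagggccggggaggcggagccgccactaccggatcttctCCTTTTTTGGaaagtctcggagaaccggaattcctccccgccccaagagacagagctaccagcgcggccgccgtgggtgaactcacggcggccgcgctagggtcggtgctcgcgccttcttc
Zfp36: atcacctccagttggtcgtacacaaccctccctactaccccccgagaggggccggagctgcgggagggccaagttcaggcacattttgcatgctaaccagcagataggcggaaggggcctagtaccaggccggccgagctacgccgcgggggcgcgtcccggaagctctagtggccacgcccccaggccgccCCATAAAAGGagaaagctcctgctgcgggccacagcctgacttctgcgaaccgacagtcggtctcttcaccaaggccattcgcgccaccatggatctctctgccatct
Btg2: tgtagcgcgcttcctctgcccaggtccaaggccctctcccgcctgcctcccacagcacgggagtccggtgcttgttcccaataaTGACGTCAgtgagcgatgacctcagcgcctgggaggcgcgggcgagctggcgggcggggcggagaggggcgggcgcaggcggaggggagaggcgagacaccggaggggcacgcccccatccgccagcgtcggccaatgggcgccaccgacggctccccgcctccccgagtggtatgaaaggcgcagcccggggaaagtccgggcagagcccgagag
Dusp1: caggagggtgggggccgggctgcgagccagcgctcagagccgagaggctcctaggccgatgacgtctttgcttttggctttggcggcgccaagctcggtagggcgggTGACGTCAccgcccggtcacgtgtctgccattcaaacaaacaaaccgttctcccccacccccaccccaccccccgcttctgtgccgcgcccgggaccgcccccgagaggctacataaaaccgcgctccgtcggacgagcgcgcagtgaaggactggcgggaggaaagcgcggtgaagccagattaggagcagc
The Egr2 window is chr10:67537316-67537615 on the plus strand, with its CArG box 72 bases before the start. It is 1 of 5 Egr2 windows in the table, of which 4 hold a CArG box, and the one at chr10:67535249-67535548 holds no match. The Zfp36 window is chr7:28379179-28379478 on the minus strand, with its CArG box 58 bases before the start. Those of Btg2 (chr1:134079106-134079405) and Dusp1 (chr17:26508423-26508722) lie on the minus strand, with the cAMP response element 166 and 143 bases before the start. Of 32817 windows of all genes, 1.63% hold a CArG box and 1.79% the cAMP response element. The AP-1 site, TGACTCA or TGAGTCA, was searched too and lies in 5.21% of windows. In the windows of Fos and Junb none of these 3 motifs was found. For Jund, Ppp1r15a and Trib1, which rose too, the windows were not examined gene by gene. Windows were at hand for 73.2% of the genes tested, below the 80% needed, so no share of motifs among called genes is given.

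Of 16 tested genes of the interleukin-1 family 1 rose and 2 fell (18.8% called, against 2.84% of all genes). Il1rn encodes the receptor antagonist that blocks interleukin-1, and it stood at 928, 2899 and 1426 normalized counts with empty vector and 4341, 4018 and 3806 with ETV6-NCOA2 (log2 fold change 1.37 ± 0.31 SE, adjusted p = 0.045). Empty vector replicate 2 was well above the other controls yet below all fusion libraries. The receptor genes for IL-33 and IL-18 went down: Il1rl1, which mast cells and basophils carry, stood at 10386, 5854 and 7289 normalized counts with empty vector and 3491, 3422 and 2636 with ETV6-NCOA2 (log2 fold change -1.27 ± 0.27 SE, adjusted p = 0.038), and Il18rap at 2178, 1081 and 1337 normalized counts with empty vector and 745, 750.2 and 663 with ETV6-NCOA2 (log2 fold change -1.03 ± 0.23 SE, adjusted p = 0.04). In both genes the control libraries differed among themselves by more than the fusion libraries did. Outside that list, Irak3, a brake on Toll-like receptor signals, fell with a log2 fold change of -0.60. Sphk1, the kinase that makes sphingosine 1-phosphate, rose with 0.68, and Hbegf, a heparin-binding ligand of the EGF receptor, with 1.17. The 6 genes followed here gave 0, 6 and 0 calls when empty vector replicate 1, 2 or 3 was dropped and 2, 0 and 0 when ETV6-NCOA2 replicate 1, 2 or 3 was, and none passed in all 6 fits.

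Receptors best known from blood vessels rose, and 2 other growth factor receptors fell. Of 21 tested receptor tyrosine kinases 3 rose and 2 fell (23.8% called, against 2.84% of all genes). Tek, the angiopoietin receptor (chromosome 4, 94739289 to 94874976), stood at 50.7, 27.9 and 28.4 normalized counts with empty vector and 120.2, 101.43 and 126 with ETV6-NCOA2 (log2 fold change 1.72 ± 0.31 SE, adjusted p = 0.023). Tie1, its partner receptor, stood at 247, 238 and 260.2 normalized counts with empty vector and 462, 416 and 357 with ETV6-NCOA2 (log2 fold change 0.72 ± 0.14 SE, adjusted p = 0.03). Kdr, a VEGF receptor that haematopoietic precursors also express, stood at 119, 176 and 103 normalized counts with empty vector and 354, 241 and 282 with ETV6-NCOA2 (log2 fold change 1.15 ± 0.20 SE, adjusted p = 0.02). The groups did not overlap in any of the 3 genes, and the related VEGF receptor gene Flt1 had a log2 fold change of 0.96 with an adjusted p of 0.068. Tek stood at 52.97, 24.2 and 26.9 with KAT6A-NCOA2, below ETV6-NCOA2 by the direct test (log2 difference 1.79, adjusted p = 0.012), while for Kdr that test gave an adjusted p of 0.13. Beside these genes, 2 of 9 stromal and endothelial markers rose (22.2%, against 1.02% of all genes called higher), and these were Kdr and Tek themselves. Limma called no member lower, but 2 lay wholly below the controls, as did 12.5% of all genes. The lowest log2 fold change in the list was -1.63. DESeq2, edgeR, a replicate block and the fit without empty vector replicate 2 each called 2 members lower. The list's sum overlapped between groups at 2480 to 2788 and 2126.5 to 2596. The part of such cells was not tested. Among 3 of the genes above that passed, 1, 3 and 0 did so with empty vector replicate 1, 2 or 3 left out and 0, 1 and 0 with ETV6-NCOA2 replicate 1, 2 or 3 left out, and none passed in all 6 fits.

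Fgfr1, a fibroblast growth factor receptor, stood at 3966, 2943 and 2714 normalized counts with empty vector and 1646, 1985 and 1619 with ETV6-NCOA2 (log2 fold change -0.86 ± 0.15 SE, adjusted p = 0.019). Kit, the receptor for the SCF in the medium, stood at 3786, 2647 and 2912 normalized counts with empty vector and 1342, 1259 and 1089.9 with ETV6-NCOA2 (log2 fold change -1.33 ± 0.19 SE, adjusted p = 0.0094). Among ligands, Hgf, the hepatocyte growth factor that acts on MET, stood at 4266, 2286 and 2524 normalized counts with empty vector and 1655, 1194 and 1161 with ETV6-NCOA2 (log2 fold change -1.14 ± 0.23 SE, adjusted p = 0.031). Every fusion library of these 3 genes was below every control library, and for Kit the gap ran from 1342 to 2647. Fgf3, a fibroblast growth factor gene with little expression in adult tissue, stood at 42.1, 25.2 and 35.5 normalized counts with empty vector and 1.04, 1.91 and 2.06 with ETV6-NCOA2. It met the minimum only in empty vector libraries, so no test is given. Pros1, which encodes protein S, an anticoagulant and a ligand of the TAM receptors, stood at 1467, 2121 and 1509.5 normalized counts with empty vector and 3036, 3119 and 3169 with ETV6-NCOA2 (log2 fold change 0.89 ± 0.12 SE, adjusted p = 0.008). The fusion libraries were within 3036 to 3169, a narrower band than the controls. The TAM receptor genes Mertk, Axl and Tyro3 had adjusted p values of 0.16, 0.32 and 0.54, and the other TAM ligand gene Gas6 had 0.21, with a log2 fold change of -0.45. Of 30 axon guidance genes 3 rose (10%), against 1.02% of all genes called higher. Robo3, a receptor of the SLIT pathway, stood at 227, 229 and 223 normalized counts with empty vector and 439, 613 and 524 with ETV6-NCOA2 (log2 fold change 1.20 ± 0.17 SE, adjusted p = 0.0093). Plxnb3, a semaphorin receptor, stood at 81.2, 69.7 and 87.9 normalized counts with empty vector and 153, 163 and 155 with ETV6-NCOA2 (log2 fold change 0.98 ± 0.14 SE, adjusted p = 0.0093). In both the control libraries were close together and far below the fusion libraries, and both were higher than with KAT6A-NCOA2 (adjusted p = 0.023 and 0.0031). Sema4b, a semaphorin of the cell surface, rose with a log2 fold change of 0.41. With empty vector replicate 1, 2 or 3 left out the test was passed by 5, 7 and 5 of 7 genes named here, and by 6, 4 and 4 with ETV6-NCOA2 replicate 1, 2 or 3 left out. Kit, Pros1 and Robo3 passed in all 6 of these fits.

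**Figure D3:**
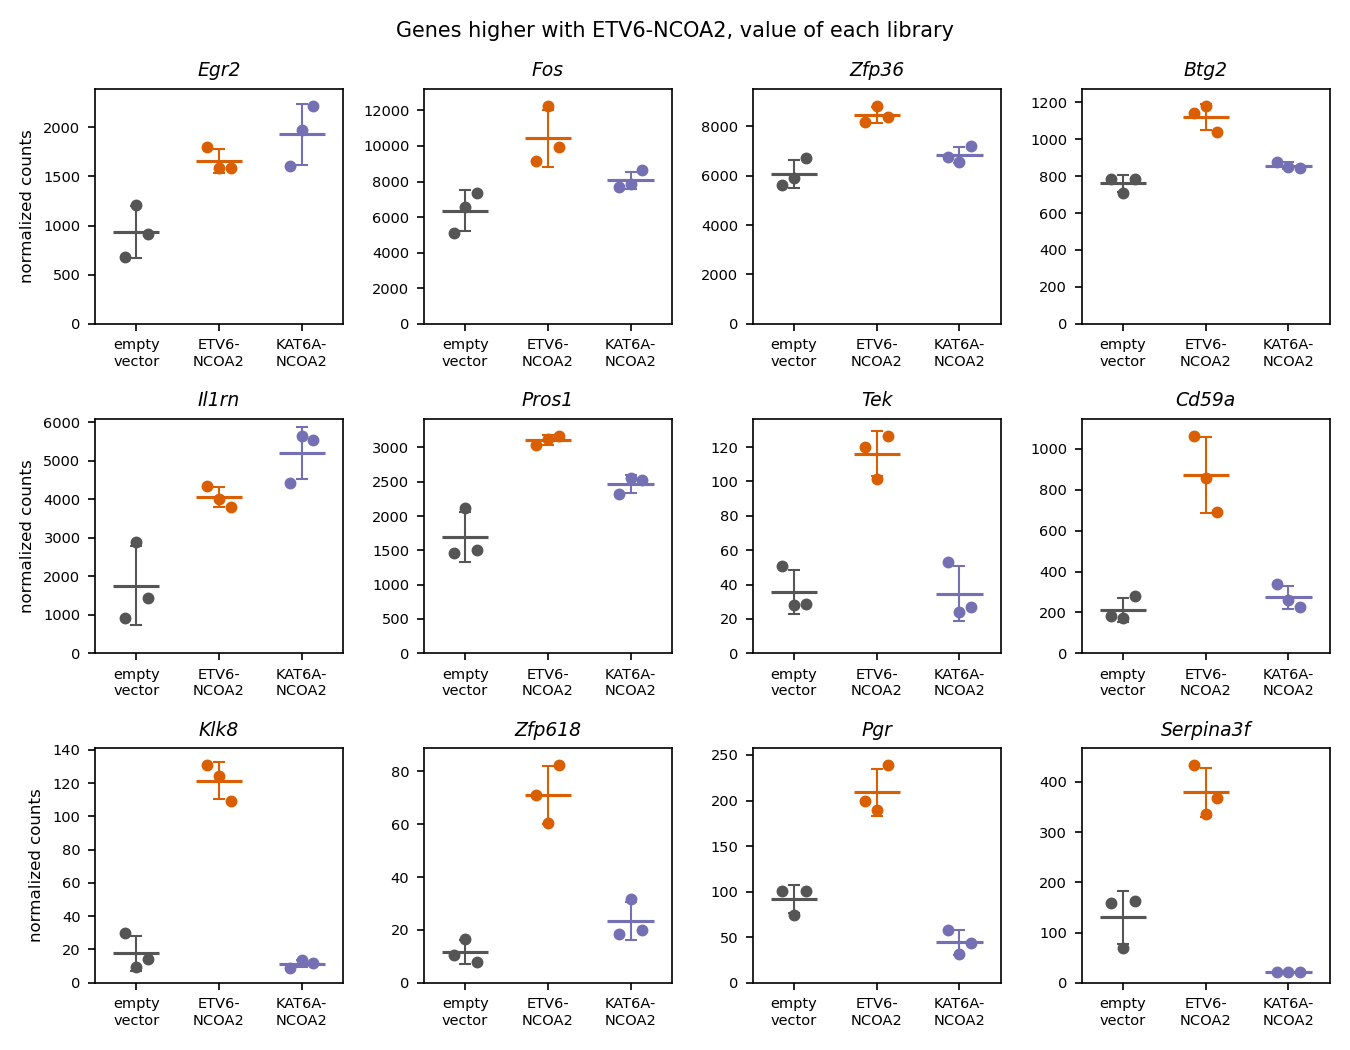
Normalized counts of 12 genes called higher with ETV6-NCOA2, 1 point per library, for empty vector (grey), ETV6-NCOA2 (orange) and KAT6A-NCOA2 (purple), with the group mean (horizontal line) and SD (error bar, n = 3). In each panel the 3 orange points lie above the 3 grey ones, and in every panel but Egr2 and Il1rn they also lie above the purple ones.

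Several surface proteins rose. Cd59a encodes an anchored protein that stops complement from forming its pore, and it lies on chromosome 2, 104095801 to 104115354 (GRCm38). It stood at 184, 174 and 279.7 normalized counts with empty vector and 1064, 857 and 693 with ETV6-NCOA2 (log2 fold change 2.04 ± 0.21 SE, adjusted p = 0.0029), and at 337, 259.7 and 227 with KAT6A-NCOA2. Its highest control value was 279.7 and its lowest fusion value 693, and the direct test against KAT6A-NCOA2 gave an adjusted p of 0.0029. Klrb1c, the NK1.1 receptor gene of NK cells, stood at 0.96, 9.58 and 3.55 normalized counts with empty vector and 87.8, 73.7 and 94.6 with ETV6-NCOA2. It met the minimum only in ETV6-NCOA2 libraries, as did Eomes, a T-box factor of NK and memory T cells, at 3.82, 1.74 and 0.89 normalized counts with empty vector and 22.99, 20.1 and 14.4 with ETV6-NCOA2, so no test is given for either. Of the 7 NK and innate lymphoid markers tested 1 fell, and beside these 2 genes none rose. The list's sum ran from 13583 to 19461 with empty vector and from 8650 to 13137 with ETV6-NCOA2. Prnp, the prion protein gene, stood at 1181, 1429.7 and 1489 normalized counts with empty vector and 2328, 2026 and 2139 with ETV6-NCOA2 (log2 fold change 0.67 ± 0.10 SE, adjusted p = 0.012). F11r, a junctional adhesion molecule, stood at 662, 836 and 765 normalized counts with empty vector and 1148, 1179 and 1122 with ETV6-NCOA2 (log2 fold change 0.61 ± 0.09 SE, adjusted p = 0.0094). Controls and fusion libraries were apart in both genes, with the lowest fusion value of F11r at 1122 and its highest control at 836. Cd52 rose with a log2 fold change of 0.62, and Siglecf, an inhibitory lectin of eosinophils and some macrophages, with 0.68. Itga9, an integrin chain that binds VCAM1 and tenascin, stood at 139.6, 204 and 173 normalized counts with empty vector and 260.2, 336 and 336 with ETV6-NCOA2 (log2 fold change 0.86 ± 0.16 SE, adjusted p = 0.028). Itgb2l, a relative of the leukocyte integrin beta chain, stood at 2.87, 3.48 and 4.44 normalized counts with empty vector and 50.2, 19.1 and 13.4 with ETV6-NCOA2 and was listed at 0 in all 3 KAT6A-NCOA2 libraries. It too met the minimum only in ETV6-NCOA2 libraries, which were unequal, with replicate 1 more than the other two together. The 6 genes followed here gave 3, 6 and 3 calls when empty vector replicate 1, 2 or 3 was dropped and 6, 2 and 4 when ETV6-NCOA2 replicate 1, 2 or 3 was. Cd59a and Prnp passed in all 6 of these fits.

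Among genes at low level, Klk8, Drc7 and Zfp618 were high with ETV6-NCOA2 and low in both other groups. Klk8, a secreted serine protease of the kallikrein family on chromosome 7, 43797577 to 43803826, stood at 29.6, 9.58 and 14.2 normalized counts with empty vector and 131, 124 and 109 with ETV6-NCOA2 (log2 fold change 2.84 ± 0.35 SE, adjusted p = 0.0057) and at 9.17, 13.7 and 11.7 with KAT6A-NCOA2. Drc7, a gene of motile cilia, stood at 14.3, 10.4 and 23.1 normalized counts with empty vector and 104, 119 and 80.2 with ETV6-NCOA2 (log2 fold change 2.64 ± 0.39 SE, adjusted p = 0.01) and at 17.3, 7.36 and 5.84 with KAT6A-NCOA2. Zfp618, a zinc finger gene on chromosome 4, 62965573 to 63139708, stood at 10.5, 16.5 and 7.99 normalized counts with empty vector and 71.1, 60.3 and 82.3 with ETV6-NCOA2 (log2 fold change 2.55 ± 0.30 SE, adjusted p = 0.005) and at 18.3, 31.5 and 19.9 with KAT6A-NCOA2. In these 3 genes the lowest fusion value was 60.3 and the highest value of any other library 31.5, and the direct tests against KAT6A-NCOA2 gave adjusted p values of 0.0011, 0.0019 and 0.018. Slc13a2, a citrate and succinate carrier, stood at 21.03, 15.7 and 11.5 normalized counts with empty vector and 48.1, 54.5 and 63.8 with ETV6-NCOA2 (log2 fold change 1.75 ± 0.25 SE, adjusted p = 0.0092). Serpina3f, a serine protease inhibitor of the antitrypsin type, stood at 159, 69.7 and 162 normalized counts with empty vector and 433, 336 and 368 with ETV6-NCOA2 (log2 fold change 1.62 ± 0.28 SE, adjusted p = 0.019). It was far lower at 21.4, 22.1 and 21.04 with KAT6A-NCOA2, so the control libraries lie between the fusions. Among 5 of the genes above that passed, 5, 5 and 5 did so with empty vector replicate 1, 2 or 3 left out and 4, 3 and 4 with ETV6-NCOA2 replicate 1, 2 or 3 left out. Klk8, Zfp618 and Slc13a2 passed in all 6 of these fits.

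Of 23 tested targets of nuclear receptors 4 rose and 1 fell (21.7% called, against 2.84% of all genes), with a median log2 fold change of 0.31. Pgr, the progesterone receptor and an oestrogen receptor target, stood at 100.4, 74.01 and 100.3 normalized counts with empty vector and 199.6, 189 and 239 with ETV6-NCOA2 (log2 fold change 1.19 ± 0.22 SE, adjusted p = 0.023) and at 58.1, 31.5 and 43.2 with KAT6A-NCOA2. Greb1, another oestrogen target, stood at 8.60, 9.58 and 11.5 normalized counts with empty vector and 40.8, 28.7 and 28.8 with ETV6-NCOA2 (log2 fold change 1.62 ± 0.34 SE, adjusted p = 0.036). Greb1 reached the minimum of 10 in all ETV6-NCOA2 libraries but among the controls only in replicate 3, which limits its place among the 4 rises. Pgr was thus above the controls with one fusion and below them with the other, and both genes were higher than with KAT6A-NCOA2 in the direct test (adjusted p = 0.00062 and 0.03). Mt2, a metallothionein that metals and glucocorticoids induce, stood at 512, 784 and 727 normalized counts with empty vector and 1003, 1494 and 1141 with ETV6-NCOA2 (log2 fold change 0.85 ± 0.18 SE, adjusted p = 0.036), and its neighbour Mt1 had a log2 fold change of 0.39 with an adjusted p of 0.079. Against KAT6A-NCOA2 the direct test gave an adjusted p of 0.95 for Mt2 and 0.76 for Dusp1. Igfbp4, an IGF-binding protein, fell with a log2 fold change of -0.87. With empty vector replicate 1, 2 or 3 left out the test was passed by 0, 4 and 0 of 4 genes named here, and by 1, 0 and 0 with ETV6-NCOA2 replicate 1, 2 or 3 left out, and none passed in all 6 fits.

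Of 41 integrin and adhesion genes 3 rose and 3 fell (14.6% called, against 2.84% of all genes), and without Itgb2l, which entered through 1 group alone, 2 rose. Itga4, the alpha chain of the VLA-4 integrin that holds progenitors to VCAM1, stood at 1519, 1354 and 1605 normalized counts with empty vector and 972, 926 and 937 with ETV6-NCOA2 (log2 fold change -0.66 ± 0.08 SE, adjusted p = 0.005). Icam2, a ligand of LFA-1, stood at 316, 233 and 254 normalized counts with empty vector and 147, 128 and 144 with ETV6-NCOA2 (log2 fold change -0.92 ± 0.13 SE, adjusted p = 0.0089). The fusion libraries of both were lower than all controls, with little spread for Itga4. Lama5, a laminin chain of basement membranes, had a log2 fold change of -1.11. Of 71 actin and myosin genes 3 fell (4.22%), against 1.82% of all genes called lower. The 3 became 0, 4 and 0 with empty vector replicate 1, 2 or 3 left out and 2, 0 and 0 with ETV6-NCOA2 replicate 1, 2 or 3 left out. Ablim1, an actin-binding LIM protein outside that list, stood at 653, 523 and 553 normalized counts with empty vector and 241, 283 and 267 with ETV6-NCOA2 (log2 fold change -1.12 ± 0.11 SE, adjusted p = 0.0029). Its highest fusion value was 283 and its lowest control 523. The myosin genes Myo1d and Myl10 had log2 fold changes of -1.56 and -1.32. Rhoc, a GTPase of cell migration, stood at 1400.3, 2131 and 1640.0 normalized counts with empty vector and 2769, 2592 and 2417 with ETV6-NCOA2 (log2 fold change 0.61 ± 0.13 SE, adjusted p = 0.036), and Rhoj, a GTPase of endothelial cells, had 0.64. The formin Fmnl3, which builds unbranched actin filaments, stood at 404, 521 and 449 normalized counts with empty vector and 681, 696 and 702 with ETV6-NCOA2 (log2 fold change 0.60 ± 0.09 SE, adjusted p = 0.0095). The exchange factor genes Dock5 and Arhgef18 fell with -0.70 and -0.58. The 11 genes followed here gave 5, 11 and 5 calls when empty vector replicate 1, 2 or 3 was dropped and 7, 3 and 4 when ETV6-NCOA2 replicate 1, 2 or 3 was. Itga4, Icam2 and Ablim1 passed in all 6 of these fits.

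Receptors that signal through G proteins fell where they passed the test. Outside the chemokine and eicosanoid receptors, 6 of 95 fell (6.32%), against 1.82% of all genes called lower. Grm6, a metabotropic glutamate receptor of retinal bipolar cells, stood at 2046, 988 and 1232 normalized counts with empty vector and 469, 429.6 and 316 with ETV6-NCOA2 (log2 fold change -1.76 ± 0.38 SE, adjusted p = 0.039). Gpr65, a receptor for extracellular acid, stood at 856, 872 and 695 normalized counts with empty vector and 444, 505 and 458 with ETV6-NCOA2 (log2 fold change -0.78 ± 0.11 SE, adjusted p = 0.0094). Hrh2, a histamine receptor, stood at 176, 112 and 117 normalized counts with empty vector and 81.5, 65.1 and 75.1 with ETV6-NCOA2 (log2 fold change -0.84 ± 0.18 SE, adjusted p = 0.039). In these genes no fusion library reached a control library, and Grm6 was highest in empty vector replicate 1. The others were Gpr55, P2ry10 and the adhesion receptor gene Adgrl4, with log2 fold changes of -2.02, -1.65 and -1.47. Gnai1, an inhibitory G protein chain, had -2.14. Across all 95 receptors the median log2 fold change was 0.03, so the list as a whole lay near 0. Of 97 ion channel and pump genes 6 fell and 1 rose (7.22% called). Among them Atp1b2, a sodium pump beta chain, had a log2 fold change of -2.45, the sodium channel relative Scn7a -1.72 and the potassium channel Kcnq5 -1.15, while Cacna2d1, a calcium channel subunit, rose with 1.42. Of 227 solute carriers 5 rose and 6 fell (4.85% called, against 2.84% of all genes). Slc22a3, a carrier of organic cations such as histamine, stood at 724, 468 and 678 normalized counts with empty vector and 229.9, 185 and 183 with ETV6-NCOA2 (log2 fold change -1.62 ± 0.29 SE, adjusted p = 0.022). The zinc carrier Slc39a2 and the fatty acid carrier Slc27a6 rose with 1.38 and 1.42, while the falls include the glutamine carrier Slc38a5, which met the minimum only in empty vector libraries and leaves 5 without it. Among 14 of the genes above that passed, 3, 14 and 2 did so with empty vector replicate 1, 2 or 3 left out and 6, 2 and 2 with ETV6-NCOA2 replicate 1, 2 or 3 left out. Gpr65 passed in all 6 of these fits.

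Of 35 genes of heparin and chondroitin sulfate synthesis 2 fell and 1 rose (8.57% called, against 2.84% of all genes). Of 50 other glycosyltransferases 2 fell and 1 rose (6% called). Chst13, a chondroitin sulfotransferase, stood at 103, 47.02 and 60.4 normalized counts with empty vector and 15.7, 18.2 and 7.20 with ETV6-NCOA2 (log2 fold change -2.29 ± 0.40 SE, adjusted p = 0.02). Hs3st1, which makes the rare sulfate that antithrombin binds on heparin, stood at 212, 198 and 143 normalized counts with empty vector and 79.4, 93.8 and 59.6 with ETV6-NCOA2 (log2 fold change -1.24 ± 0.26 SE, adjusted p = 0.035). Fut7, which completes the selectin ligand sialyl Lewis x, stood at 484, 315 and 396 normalized counts with empty vector and 213, 159.8 and 157 with ETV6-NCOA2 (log2 fold change -1.16 ± 0.18 SE, adjusted p = 0.012). These 3 were lower in every fusion library, and B3gnt5, which starts lacto-series glycolipids, had a log2 fold change of -1.12. Both rises were small, Chsy1, a chondroitin chain polymerase, with 0.41 and St3gal1, a sialyltransferase, with 0.43. Granule genes beside them were Sytl1, a partner of RAB27, with -1.60, and Rab44, a large RAB of mast cell granules, with -0.88. Slc35d3, which platelet dense granules need in mice, stood at 797, 901 and 1088 normalized counts with empty vector and 1874, 1705 and 1376 with ETV6-NCOA2 (log2 fold change 0.83 ± 0.16 SE, adjusted p = 0.028). Padi2, an enzyme that turns arginine to citrulline in proteins, stood at 5846, 3693 and 4239 normalized counts with empty vector and 2559, 2032 and 1581 with ETV6-NCOA2 (log2 fold change -1.16 ± 0.22 SE, adjusted p = 0.028). For Padi2 the highest fusion value was 2559 and the lowest control 3693. Mast cell and basophil markers fell alongside, 10 of 24 as given above. With empty vector replicate 1, 2 or 3 left out the test was passed by 2, 10 and 0 of 10 genes named here, and by 6, 2 and 3 with ETV6-NCOA2 replicate 1, 2 or 3 left out, and none passed in all 6 fits.

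**Figure D4:**
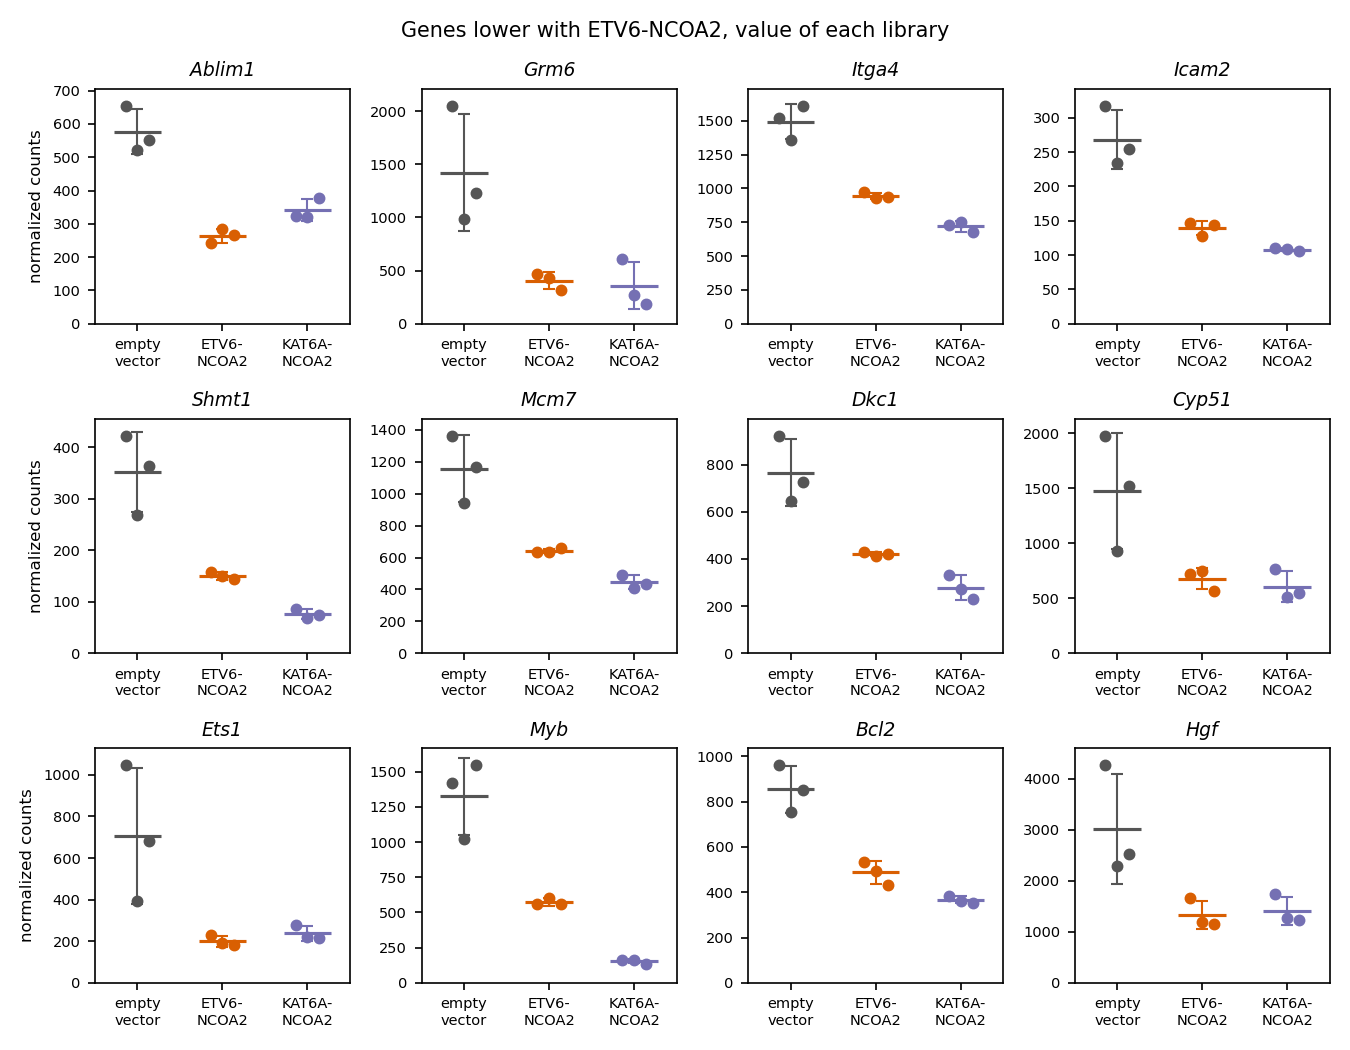
Normalized counts of 12 genes called lower with ETV6-NCOA2, 1 point per library, for empty vector (grey), ETV6-NCOA2 (orange) and KAT6A-NCOA2 (purple), with the group mean (horizontal line) and SD (error bar, n = 3). In each panel the 3 orange points lie below the 3 grey ones, and empty vector replicate 2, the middle grey point, is the lowest control in all 12.

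Of 40 nucleotide and one-carbon genes 13 fell (32.5%), against 1.82% of all genes called lower. Their median log2 fold change was -0.31, and 29 lay wholly below the controls, as did 12.5% of all genes. Shmt1, the cytosolic enzyme that passes carbon from serine to folate (chromosome 11, 60788104 to 60811718), stood at 422, 268 and 364 normalized counts with empty vector and 158, 149 and 144 with ETV6-NCOA2 (log2 fold change -1.20 ± 0.16 SE, adjusted p = 0.008). Rrm2, a subunit of the reductase that makes deoxynucleotides, stood at 1294, 756 and 826 normalized counts with empty vector and 533, 471 and 402 with ETV6-NCOA2 (log2 fold change -0.999 ± 0.19 SE, adjusted p = 0.029). Tyms, which makes thymidylate, stood at 605, 375 and 442 normalized counts with empty vector and 228, 262 and 252 with ETV6-NCOA2 (log2 fold change -0.91 ± 0.17 SE, adjusted p = 0.026). The fusion libraries were below all controls, and empty vector replicate 1 was the highest control in each. Cad, which carries the first enzymes of pyrimidine synthesis, had -0.69. Of 50 DNA replication genes 9 fell (18%), with a median of -0.48 and 33 wholly below the controls. Mcm7, a subunit of the replicative helicase, stood at 1362, 941 and 1169 normalized counts with empty vector and 636, 635 and 657 with ETV6-NCOA2 (log2 fold change -0.83 ± 0.12 SE, adjusted p = 0.0095). Cdc6, which loads that helicase at origins, stood at 300.1, 212 and 243 normalized counts with empty vector and 152, 129 and 113 with ETV6-NCOA2 (log2 fold change -0.93 ± 0.15 SE, adjusted p = 0.015). Every fusion library of both was below every control. The helicase subunits Mcm3 and Mcm4 had -0.71 and -0.61, and the fork protein gene Timeless -0.65. Of 45 mitosis genes 7 fell (15.6%), with a median of -0.53 and 31 wholly below the controls. Top2a, the topoisomerase that untangles chromosomes, stood at 4191, 2871 and 3458 normalized counts with empty vector and 2308, 2283 and 1926 with ETV6-NCOA2 (log2 fold change -0.68 ± 0.14 SE, adjusted p = 0.032). Ect2, which starts the cleavage furrow, had a log2 fold change of -1.02, and the kinesins Kif2c and Kif20a and cyclin B1 (Ccnb1) had -0.80, -0.66 and -0.67. Of 42 DNA repair genes 2 fell (4.76%, against 1.82% of all genes called lower). They were Exo1, an exonuclease of mismatch repair, with -0.89 and Hells, a chromatin remodeller of DNA methylation, with -0.84. These 2 became 0, 14 and 0 with empty vector replicate 1, 2 or 3 left out and 0, 0 and 0 with ETV6-NCOA2 replicate 1, 2 or 3 left out. The nucleotide count of 13 became 1, 20 and 1 with empty vector replicate 1, 2 or 3 left out and 4, 1 and 2 with ETV6-NCOA2 replicate 1, 2 or 3 left out. The replication count of 9 became 2, 30 and 0 with empty vector replicate 1, 2 or 3 left out and 3, 0 and 1 with ETV6-NCOA2 replicate 1, 2 or 3 left out. For mitosis the 7 became 0, 36 and 0 with empty vector replicate 1, 2 or 3 left out and 2, 0 and 0 with ETV6-NCOA2 replicate 1, 2 or 3 left out. The 16 genes followed here gave 3, 16 and 1 calls when empty vector replicate 1, 2 or 3 was dropped and 6, 1 and 2 when ETV6-NCOA2 replicate 1, 2 or 3 was. Shmt1 passed in all 6 of these fits. Summed over the nucleotide list, levels were 34964 to 39924 with empty vector, 30109 to 31358 with ETV6-NCOA2 and 27422 to 28822 with KAT6A-NCOA2. In the same order the replication sums were 29882 to 40018, 24898 to 26214 and 19127 to 21862. Those of mitosis were 30665 to 45272, 23740 to 28574 and 18897 to 21280, so all these sums were lower with both fusions.

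Promoter windows of the helicase genes Mcm3 and Mcm7 are shown for E2F sites, which the cell-cycle regulators of S phase genes read. The motifs searched were TTTGGCGC, TTTCGCGC and TTTCCCGC on both strands, and 1.84% of the 32817 windows hold at least 1.
Mcm3: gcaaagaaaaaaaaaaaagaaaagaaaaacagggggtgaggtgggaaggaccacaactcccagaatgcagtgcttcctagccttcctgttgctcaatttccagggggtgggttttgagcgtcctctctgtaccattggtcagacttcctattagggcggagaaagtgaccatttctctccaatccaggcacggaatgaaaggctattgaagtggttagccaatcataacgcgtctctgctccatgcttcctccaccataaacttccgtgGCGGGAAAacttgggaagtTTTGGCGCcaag
Mcm7: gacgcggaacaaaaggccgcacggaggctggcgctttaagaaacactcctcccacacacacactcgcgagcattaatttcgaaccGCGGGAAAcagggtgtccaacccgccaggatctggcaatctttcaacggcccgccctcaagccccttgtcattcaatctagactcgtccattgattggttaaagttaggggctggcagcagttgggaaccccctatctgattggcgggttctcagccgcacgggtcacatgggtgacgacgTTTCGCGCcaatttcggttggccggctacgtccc
The Mcm3 window is chr1:20820263-20820562 on the minus strand, with matches 19 and 38 bases after the start. The Mcm7 window is chr5:138171834-138172133 on the minus strand, with matches 165 bases before and 16 after the start, and a second Mcm7 window in the table holds none.

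Some genes of ribosome assembly fell, while no gene of the ribosomal proteins themselves passed the test. Of 42 ribosome biogenesis genes 6 fell (14.3%), against 1.82% of all genes called lower. All 42 had a lower mean with ETV6-NCOA2, with a median log2 fold change of -0.25. Dkc1, the enzyme that makes pseudouridine in ribosomal RNA and a telomerase partner, stood at 921, 646 and 728 normalized counts with empty vector and 427, 411 and 422 with ETV6-NCOA2 (log2 fold change -0.85 ± 0.15 SE, adjusted p = 0.02). Nop10, of the same particle, stood at 1016, 743 and 987 normalized counts with empty vector and 598, 681 and 607 with ETV6-NCOA2 (log2 fold change -0.53 ± 0.12 SE, adjusted p = 0.04). Both were lower in every fusion library than in any control, and the nucleolar genes Nolc1, Wdr12 and Ddx21 had smaller log2 fold changes of -0.45, -0.40 and -0.37. Hspd1, a mitochondrial chaperonin, had -0.49. Myc, which drives ribosome assembly and growth, stood at 1619, 1359 and 1560.1 normalized counts with empty vector and 1049, 1186 and 1201 with ETV6-NCOA2 (log2 fold change -0.40 ± 0.09 SE, adjusted p = 0.045). Of 78 cytosolic ribosomal protein genes none passed limma, 3 had an unadjusted p below 0.05, and DESeq2 and edgeR called 0. Of 91 nuclear genes of the respiratory chain 0 passed limma, 5 had an unadjusted p below 0.05, and neither DESeq2 nor edgeR called any. The biogenesis count of 6 became 0, 14 and 0 with empty vector replicate 1, 2 or 3 left out and 2, 0 and 0 with ETV6-NCOA2 replicate 1, 2 or 3 left out. Among 7 of the genes above that passed, 0, 7 and 1 did so with empty vector replicate 1, 2 or 3 left out and 2, 0 and 0 with ETV6-NCOA2 replicate 1, 2 or 3 left out, and none passed in all 6 fits.

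Of the cholesterol synthesis and uptake genes 24 of 27 had a lower mean, and the median log2 fold change was -0.61. In 11 of the 27 the fusion libraries lay wholly below the controls, against 12.5% of all genes. The test was passed by 2 (7.41%, against 1.82% called lower), while DESeq2 called 15 and edgeR 7. Without empty vector replicate 2 limma called 21, and 0 in the other 5 fits that leave out 1 library. Cyp51, which demethylates lanosterol, stood at 1974, 928 and 1515 normalized counts with empty vector and 720.0, 746 and 569 with ETV6-NCOA2 (log2 fold change -1.06 ± 0.24 SE, adjusted p = 0.048). Hmgcs1, which makes the precursor of mevalonate, stood at 1957, 1157 and 1852 normalized counts with empty vector and 1006, 946 and 906 with ETV6-NCOA2 (log2 fold change -0.76 ± 0.16 SE, adjusted p = 0.037). In both, empty vector replicate 2 was much the lowest control and lay closer to the fusion libraries than to replicate 1. Elovl6, a fatty acid elongase, stood at 470.3, 232 and 379 normalized counts with empty vector and 139, 158 and 160.4 with ETV6-NCOA2 (log2 fold change -1.18 ± 0.23 SE, adjusted p = 0.028), and Aacs, which activates acetoacetate for lipid synthesis, had a log2 fold change of -0.73. With empty vector replicate 1, 2 or 3 left out the test was passed by 0, 4 and 0 of 4 genes named here, and by 0, 0 and 0 with ETV6-NCOA2 replicate 1, 2 or 3 left out, and none passed in all 6 fits.

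Several transcription factors of blood progenitors and lymphoid cells fell, and Lmo2 rose. Myb stood at 1418, 1020.5 and 1546 normalized counts with empty vector and 561, 606 and 558 with ETV6-NCOA2 (log2 fold change -1.18 ± 0.14 SE, adjusted p = 0.005), and it is needed by progenitors to divide. Ets1, a founding ETS factor of lymphoid cells, stood at 1046, 391 and 682 normalized counts with empty vector and 231, 189 and 179.9 with ETV6-NCOA2 (log2 fold change -1.71 ± 0.28 SE, adjusted p = 0.016). Etv4, an ETS factor induced by ERK, stood at 97.5, 35.7 and 80.8 normalized counts with empty vector and 11.5, 14.3 and 22.6 with ETV6-NCOA2 (log2 fold change -2.01 ± 0.44 SE, adjusted p = 0.039). Of 19 ETS factors these were the 2 called (10.5%, against 1.82% of all genes called lower), and the list's median was -0.04. Ets1 was highest in empty vector replicate 1 and lowest in replicate 2, and its fusion libraries were below all 3. Satb1, a chromatin organiser of thymocytes, had a log2 fold change of -1.08, and Zeb1, a repressor of epithelial genes, -0.56. Lmo2, a bridge between GATA and TAL1 factors, stood at 1845, 1917 and 2049 normalized counts with empty vector and 2586, 2472 and 2692 with ETV6-NCOA2 (log2 fold change 0.42 ± 0.06 SE, adjusted p = 0.012) and at 1992, 1932 and 2001 with KAT6A-NCOA2. Its rise was small but the groups were apart, and the direct test against KAT6A-NCOA2 gave an adjusted p of 0.0097. Npas2, a circadian clock factor, rose with 0.44. Bcl2, the survival gene of lymphoid cells and progenitors, stood at 961, 753 and 853 normalized counts with empty vector and 535, 495 and 434 with ETV6-NCOA2 (log2 fold change -0.81 ± 0.10 SE, adjusted p = 0.0075). The 8 genes followed here gave 4, 8 and 3 calls when empty vector replicate 1, 2 or 3 was dropped and 4, 3 and 2 when ETV6-NCOA2 replicate 1, 2 or 3 was. Myb and Bcl2 passed in all 6 of these fits.

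**Figure D5:**
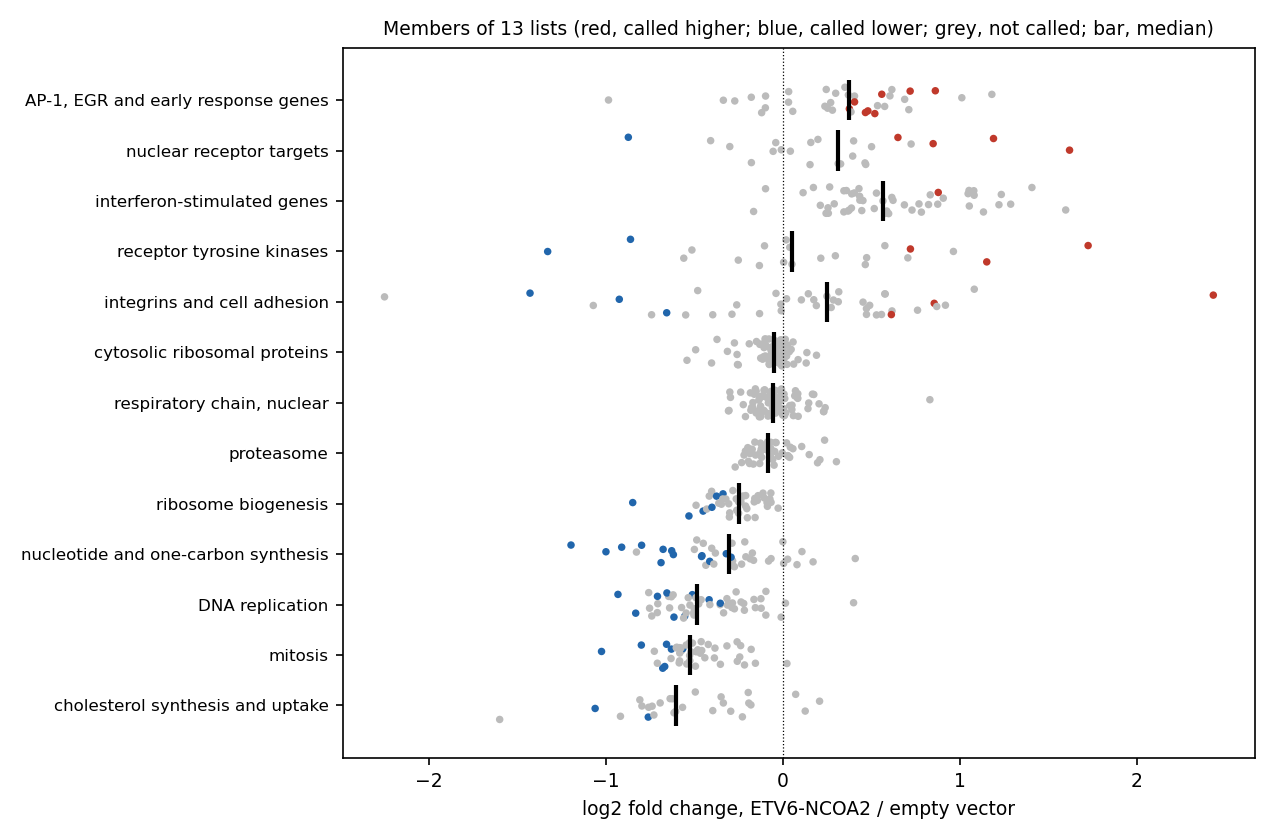
Log2 fold change of every tested member (points) of 13 of the lists, with members called higher in red, called lower in blue and others in grey, and the list median as a black bar. The early response and interferon lists lie right of 0 (medians 0.37 and 0.57), replication, mitosis and cholesterol synthesis left of it, and ribosomal protein, respiratory chain and proteasome genes close to 0.

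In 22 of the 86 lists with 627 tested members no gene passed limma, while 137 would pass at p below 0.05 with no adjustment. Of all 13750 genes tested, 2832 would pass that way, so these members did not stand out. DESeq2 called 45 of these members and edgeR 5, against 1016 and 506 of all genes. The lists' medians ran from -0.53 to 0.24. Without empty vector replicate 2 limma called 89 of the 627, against 1765 of all genes. It called between 0 and 2 of the 627 in the other 5 fits that leave out 1 library. The lists include the TGF-beta and BMP pathway, Notch, Wnt, NF-kappaB, TNF, glycolysis, proteasome and LXR. In the fit without empty vector replicate 2 the TGF-beta and BMP list had 8 of 30 genes called higher, TNF 4 of 26 and LXR 6 of 19. Of 35 glycolysis genes it called 7 higher and 2 lower. In that fit 924 of all 13750 genes were called higher and 841 lower. The 14 mitochondrial transcripts, a sign of RNA quality, had a median of 0.05, and limma, DESeq2 and edgeR each called 0 of them, as did an unadjusted p below 0.05. Among interferon-stimulated genes 49 of 51 had a higher mean and the median was 0.57, yet limma called 1, edgeR 1 and DESeq2 15. Without empty vector replicate 2 limma called 20 of the 51 higher, and 0 or 1 in the other 5 such fits. The called gene was Xaf1, which antagonises the caspase inhibitor XIAP, at 169, 165 and 129 normalized counts with empty vector and 367, 254 and 243 with ETV6-NCOA2 (log2 fold change 0.88 ± 0.17 SE, adjusted p = 0.027), and it passed in 2 of the 6 fits that leave out 1 library. It was highest in ETV6-NCOA2 replicate 1, the library whose interferon list sum, 106030, stood above the 57260 and 67089 of the other two and above the controls at 50249 to 70183. Leaving out empty vector replicate 3 brought the median to 0.32, and leaving out ETV6-NCOA2 replicate 1 to 0.40.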

How the data were processed

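Polyadenylated RNA was sequenced, and the deposited table gives 17266 genes in 9 libraries. The values are a signal, deposited as normalized counts per the file headers and written with 2 decimals. Per the submitters' processing notes, cutadapt, STAR 2.4.2a, HTSeq and DESeq2 were used with GRCm38, in an order not given in the sources used here. The rule by which lower genes were left out is not given there either. The lowest maximum of a gene over the libraries is 5.22. All values were whole multiples of 1 number per library within 0.01, so the scaling is 1 factor per library and read counts were recovered (17.5 to 20.4 M in the 6 libraries compared). For a gene with 100 reads the 95% interval from counting is about ± 19.6%, which covers counting error only. Whether reads were counted by strand is not stated, so overlapping and antisense genes are uncertain, as are near-identical gene copies.

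The main test was limma 3.58.1 (lmFit, eBayes with a trend) in R 4.3.3 on log2(value + 1), with all 9 libraries in 1 fit and 1 coefficient per group. The filter kept genes with 10 or more in 3 or more libraries, and p-values were adjusted by Benjamini-Hochberg over 13750 genes. A gene was called at an adjusted p below 0.05. The fit was tested on simulated data first. DESeq2 1.42.0 and edgeR 4.0.16 ran on the recovered reads as alternatives, beside other pseudocounts, filters and scalings, a fit of the 6 libraries alone, a replicate block and leaving out each library. The sheet of thresholds deposited beside the table was not used.

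The comparison, its 86 lists and its naming rule were chosen with earlier results of these data known. The rule names 25 rises and 25 falls with the largest changes past the test among genes above the median level, 8 and 8 among lower genes, and up to 5 called members per list. It leaves out overlapping groups. A few genes it gives are not reported here, but counts include them. Egr1, Jun, Junb, Jund, Ppp1r15a, Mt1, Flt1, Mertk, Axl, Tyro3, Gas6 and the genes of the closing observations other than Trnp1 and Ces2g were added after their values were seen. Coordinates come from GENCODE vM21 on GRCm38, and promoter windows from RefSeq on GRCm38.p6. Counts of every pair of libraries within a group differed beyond sampling noise.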

Additional observations from a re-analysis of the deposited data

How the results depend on the processing

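Of 199 genes past the test that the rule names or that were added, 38 passed in every alternative that tested them. For Fgf3, Nmnat2, Ermap and Slc13a2 these were 14, since the fit with a minimum of 50 left them out. For the others they were all 15. Fgf3 and Klrb1c are among the 38 but entered the test through 1 group only, so they give no support. None of the 199 changed sign, but in all 390 called genes the libraries of both groups do not overlap. Dropping a library, another pseudocount or filter, or the fit of only the 6 libraries could therefore not reverse the sign. For those alternatives the unchanged sign gives no support. The 390 genes (140 higher, 250 lower, 154 at least 2-fold) became 1016 with DESeq2 (370, 646 and 248) and 174 in a fit of only the 6 libraries (58 higher, 116 lower). DESeq2 called 379 of the 390. Leaving out 1 library gave between 61 and 1765 genes, between 17 and 924 higher, between 41 and 841 lower, and between 41 and 396 with at least 2-fold changes. The highest values came without empty vector replicate 2, and the cause was not tested. The other alternatives (edgeR, TMM scaling, pseudocounts of 0.1 and 5, no filter, a minimum of 50) gave between 349 and 506 genes.

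With the replicate number as a block, 1255 of the 13750 genes were called (530 higher, 725 lower, 292 at least 2-fold). Among them were 9 of 51 interferon-stimulated genes and 4 of 30 in the TGF-beta and BMP list, all higher. Of 35 glycolysis genes 7 were called higher and 1 lower. Deviations from the group mean of an empty vector and an ETV6-NCOA2 library with the same number were correlated across genes. The values were 0.31, 0.05 and -0.08 for numbers 1, 2 and 3, and only number 1 correlated best with its own number in both groups. The mast cell and basophil sum was highest in replicate 1 of every group, at 206640 for empty vector, 95766 for ETV6-NCOA2 and 75077 for KAT6A-NCOA2. The ribosome biogenesis sum was highest in empty vector replicate 1 (51551) but lowest in ETV6-NCOA2 replicate 1 (38486). Whether libraries of the same number belong together is not given in the labels, and these values cannot decide it. All alternatives left the median log2 fold change of all genes tested between 0.0023 and 0.009. Depth limits the low genes most, where a few reads set a value.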

Other observations

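Of the 390 called genes, 210 belong to none of the lists, and all genes of this section but Trnp1 and Ces2g, which the naming rule gives, were chosen after their values were seen. Several encode secreted peptides or their receptors. Calca, which encodes calcitonin and the peptide CGRP, stood at 629, 669.6 and 518 normalized counts with empty vector and 161, 193 and 80.2 with ETV6-NCOA2 (log2 fold change -2.14 ± 0.30 SE, adjusted p = 0.009). Ramp3, a partner chain of the receptors for peptides related to CGRP, stood at 269, 302 and 207 normalized counts with empty vector and 75.2, 90.9 and 54.5 with ETV6-NCOA2 (log2 fold change -1.82 ± 0.31 SE, adjusted p = 0.019). Penk, the precursor of enkephalins, stood at 168, 147 and 119 normalized counts with empty vector and 25.1, 45.9 and 33.9 with ETV6-NCOA2 (log2 fold change -2.05 ± 0.23 SE, adjusted p = 0.005). Every fusion library of these 3 genes was below every control, and Calca and Penk passed in all 6 fits that leave out 1 library. Ramp3 passed in 3 of the 6. Alox8, a lipoxygenase, had a log2 fold change of -2.27 and passed in 2 of the 6.

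Some genes known from T cells fell. Pdcd1, the PD-1 receptor, stood at 42.1, 76.6 and 98.6 normalized counts with empty vector and 27.2, 23.9 and 12.3 with ETV6-NCOA2 (log2 fold change -1.72 ± 0.35 SE, adjusted p = 0.032). Dpp4, the CD26 peptidase, stood at 85.1, 101.00 and 114 normalized counts with empty vector and 39.7, 43.1 and 38.04 with ETV6-NCOA2 (log2 fold change -1.28 ± 0.18 SE, adjusted p = 0.009). Of 7 tested T cell markers Thy1 was called, and their sum ran from 2814 to 6658 with empty vector and from 1306 to 2658 with ETV6-NCOA2, and its part in these falls was not tested. Dpp4 passed in all 6 fits that leave out 1 library, and Pdcd1 in 3. Ikzf2, a Helios factor, had a log2 fold change of -0.91 and Runx1t1, a corepressor, -1.51. Each passed in 1 of the 6. Rec8, a cohesin chain of meiosis, had -1.68 and passed in 2.

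Trnp1, a nuclear protein of neural progenitors, stood at 491, 265 and 549.6 normalized counts with empty vector and 60.6, 37.3 and 31.9 with ETV6-NCOA2 (log2 fold change -3.29 ± 0.29 SE, adjusted p = 0.002). Ces2g, a carboxylesterase, stood at 144, 127 and 241 normalized counts with empty vector and 38.7, 22.01 and 16.4 with ETV6-NCOA2 (log2 fold change -2.71 ± 0.32 SE, adjusted p = 0.005). Both passed in all 6 fits, and neither group of libraries overlapped the other. Rises outside the lists included Phlda1, an early gene in many cells, at 115, 73.1 and 100.3 normalized counts with empty vector and 256, 256 and 243 with ETV6-NCOA2 (log2 fold change 1.40 ± 0.19 SE, adjusted p = 0.008), and Tmem163, a zinc transporter, at 90.8, 58.3 and 93.2 normalized counts with empty vector and 241, 233 and 207 with ETV6-NCOA2 (log2 fold change 1.51 ± 0.19 SE, adjusted p = 0.0063). Both passed in all 6 fits and were higher than with KAT6A-NCOA2 by the direct test (adjusted p = 0.026 and 0.018). Peg13, an imprinted noncoding RNA gene, rose less, with a log2 fold change of 0.45, and passed in all 6. Spry2, a brake on ERK signals, had 0.38 with an adjusted p of 0.12.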
